A study of Mus musculus with 6 samples.

Results

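The miR-15/16 family was examined in purified round spermatids, which are haploid male germ cells, of mice with and without MIWI. Its entries were found by name, as every arm of the mouse miRNAs miR-15a, miR-15b, miR-16, miR-195a and miR-322 in the deposited small RNA table. The 5p arms are listed there as mmu-miR-15a-5p, mmu-miR-15b-5p, mmu-miR-16-5p, mmu-miR-195a-5p and mmu-miR-322-5p (the species prefix is left out from here on). The search gave 11 of 1900 miRNA entries, in a table of 45932 entries.

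The study counted small RNAs in 3 libraries of Miwi knockout (KO) males and 3 libraries of wild-type (WT) males, all C57BL/6 and all at postnatal day 21. MIWI is a PIWI protein that binds pachytene piRNAs, and the line is a global knockout. The libraries of each genotype are numbered 1 to 3. Nothing in the labels says that a number is a separate animal or that animals were pooled, so the p-values measure only the spread between these libraries, which may be technical.

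miRNAs are RNAs of about the same short length that Dicer cuts from hairpins, 1 from each arm (5p and 3p). Argonaute proteins use their seed, bases 2 to 8 from the 5′ end, to find target mRNAs. The miR-15/16 family is known as a brake on the cell cycle and on survival, with cyclins and BCL2 among its best known targets.

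The mature sequences show why these miRNAs form a family. Capitals mark the seed, and the sequences are those of RefSeq on build GRCm38.p6, where all 11 entries were matched by name.
miR-15a-5p: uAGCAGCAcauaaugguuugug
miR-15b-5p: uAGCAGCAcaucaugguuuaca
miR-16-5p: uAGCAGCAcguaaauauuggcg
miR-195a-5p: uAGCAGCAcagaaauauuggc
miR-322-5p: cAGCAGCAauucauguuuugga
miR-497a-5p: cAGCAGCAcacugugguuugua

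The 5p arms of all 5 members carry the same seed. The first 4 share their first 9 bases, and miR-322-5p begins with c in place of u. miR-16-5p and miR-195a-5p are the closest pair, with 2 differences over 21 bases, G10A and U11G (the base of miR-16-5p first, positions counted from the 5′ end). miR-15a-5p and miR-15b-5p differ at 4 of 22 bases. The sources used here do not give how many mismatches the authors' alignment allowed or how it placed reads that match more than 1 entry. Whether reads of miR-16-5p, the more abundant of the closest pair, were counted as miR-195a-5p was not tested. RefSeq lists 10 mature miRNAs with this seed, the 5 members and 5 others, of which miR-497a-5p is shown because its gene neighbours that of miR-195a.

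The genes lie in 4 places of the genome (GENCODE M21, build GRCm38). Mir15a (chr14:61632027-61632110) and Mir16-1 (chr14:61631880-61631972) are 54 bases apart on the minus strand, in an intron of the long noncoding RNA gene Dleu2 in all 8 of its transcripts that span them. Mir15b (chr3:69009772-69009835) and Mir16-2 (chr3:69009902-69009996) are 66 bases apart on the plus strand, in an intron of Smc4, a condensin subunit gene, in all 5 such transcripts. Mir195a (chr11:70235042-70235135) lies 241 bases from Mir497, and Mir322 (chrX:53054255-53054349) lies 200 bases from Mir503. No GENCODE M21 transcript other than their own spans Mir195a or Mir322 on the same strand. Both Mir16 genes give the same miR-16-5p, so their 5p reads cannot be told apart, while their 3p arms differ:
miR-16-1-3p: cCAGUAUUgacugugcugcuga
miR-16-2-3p: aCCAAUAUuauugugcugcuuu

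The whole small RNA table held 747443 to 1335013 counts in the KO libraries and 3114845 to 5037232 in the WT libraries, but the miRNA totals were closer, at 146487 to 243655 and 179761 to 246030. miRNAs were 18.1% to 19.6% of the table in KO and 4.88% to 5.96% in WT. Levels are therefore given as miRNA CPM, counts scaled to a miRNA total of 1000000 in each library, which compare a miRNA with the other miRNAs of its library and not with the cell. Counts per cell were not measured, so fewer cells of a type and less RNA per cell cannot be told apart. The library numbered 3 had the highest share of snoRNAs in each genotype, 0.563% of the table in KO and 0.431% in WT, against 0.130% to 0.190% in the other 4 libraries.

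The cell type label was checked on miRNAs. The germ cell list (miR-34b, miR-34c, miR-449a and miR-449c, 8 entries) held 314971 to 355010 CPM in KO and 284815 to 304958 in WT. The lists for spermatogonia, Sertoli and other gonadal cells, peritubular and smooth muscle cells, endothelium, red cells and leukocytes (33 entries) held 34904 to 39022 CPM together in KO and 42203 to 50795 in WT. Of the red cell markers, miR-486a-3p was at 0 in every library and miR-144-5p at 0 in every KO library, while miR-451a had 7 to 8 counts in KO and 13 to 21 in WT. miR-451a was the 1 red cell entry tested and fell by 1.25 on the log2 scale (edgeR adjusted p = 0.00427). It was in the test through the KO libraries alone. Spermatogonial markers (8 entries) had 0 rises and 0 falls among 4 tested, and endothelial markers 0 and 0 of 2. Of the spermatogonial entries tested, miR-146a-5p, miR-221-3p and miR-222-3p had only 6 to 32 counts a library. They entered the test through the KO libraries alone, with an SE of 0.38 to 0.39 in log2, so their lack of a call says little. A small RNA table does not measure the Miwi mRNA, which leaves the genotype of each library as labelled.

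The family made up more than 11% of the miRNA counts in every library. Its 11 entries gave 14.5%, 12.2% and 11.2% of the miRNA counts in KO libraries 1 to 3, and 12.4%, 11.6% and 11.3% in WT libraries 1 to 3. KO library 1 was the highest and KO library 3 the lowest, and the genotypes overlapped. The mean was 12.6% ± 1.69 in KO and 11.7% ± 0.536 in WT (SD, n = 3), a difference of 0.89 percentage points (two-sided exact permutation p = 0.7, with 0.1 the smallest that 3 against 3 libraries allow). Without KO library 1 the difference was -0.04 points. Wilson 95% intervals reached at most 0.168 points to either side of a library's share and cover counting error only.

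Nearly all of these reads came from the 5p arms, which held 99.2% to 99.4% of the family's counts in every library. miR-16-5p alone gave 48.0% to 59.9% of the family, miR-15b-5p 17.8% to 26.5%, miR-15a-5p 11.2% to 15.1% and miR-195a-5p 5.83% to 9.46%. miR-322-5p gave only 0.391% to 0.639%. Among all miRNA entries, miR-16-5p ranked 2 or 3 in every library, miR-15b-5p between 5 and 11, miR-15a-5p between 12 and 15 and miR-195a-5p between 15 and 30, while miR-322-5p ranked between 114 and 135.

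The order of the levels was the same in both genotypes for most of the family. From miR-16-5p down to miR-15b-5p, miR-15a-5p and miR-195a-5p, each stood above the next in all libraries of each genotype, with ratios of the means of 2.52, 1.74 and 1.62. A step of 16.7-fold then led to miR-16-2-3p, the best covered 3p arm, whose libraries overlapped those of miR-322-5p. miR-15b-3p, miR-322-3p and miR-16-1-3p followed in this order without overlap, and miR-195a-3p and miR-15a-3p came last and overlapped.

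**Figure D1:**
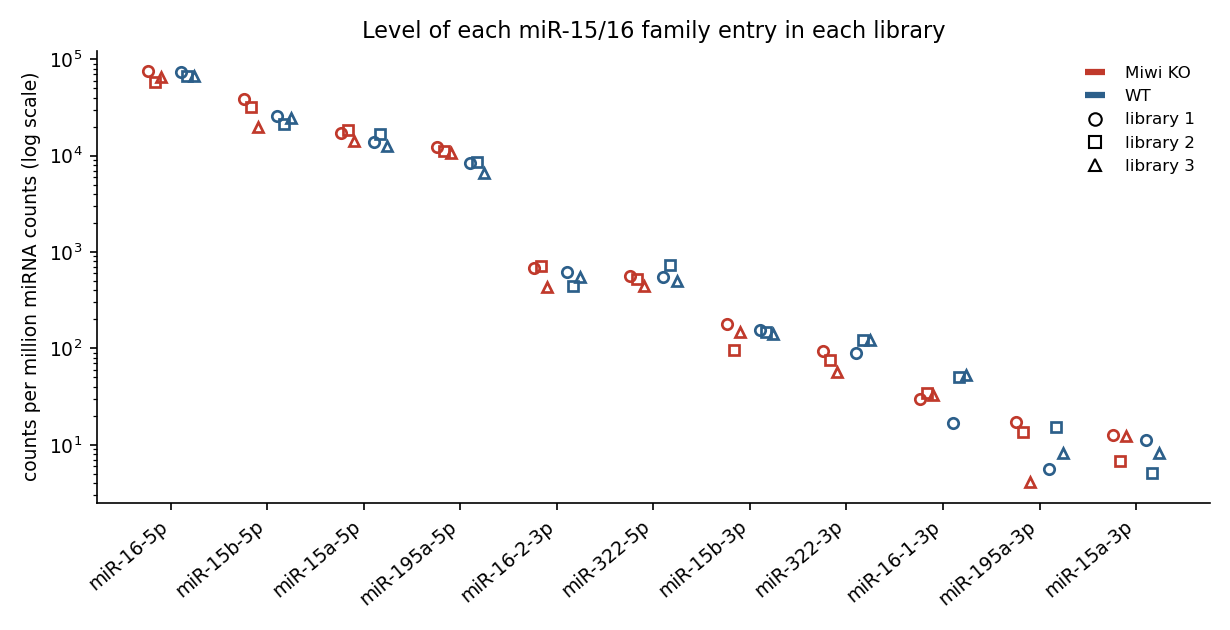
miRNA CPM (log axis) of the 11 entries, ordered by their mean. Each point is 1 library, red for KO and blue for WT, with the marker giving the library number. Only for miR-195a-5p do all 3 KO points lie above all 3 WT points.

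miR-195a-5p was the member that rose relative to the other miRNAs. It had 2905, 1659 and 2578 counts in KO libraries 1 to 3 and 1493, 1674 and 1623 in WT libraries 1 to 3, which is 12375, 11325 and 10580 miRNA CPM in KO and 8305, 8540 and 6597 in WT. Every KO library was above every WT library. The mean was 11427 ± 902 (SD, n = 3) in the KO libraries and 7814 ± 1061 in the WT libraries. This is 1.46-fold, or 0.55 ± 0.16 in log2 (SE, 95% interval 0.22 to 0.88, edgeR adjusted p = 0.00233). Over the other ways of fitting that kept a miRNA scale, the edgeR or DESeq2 adjusted p was 5.31e-06 to 0.0197. Scaling to the whole small RNA table gave lower values, but there nearly all miRNAs rose, so it says nothing about a rise relative to other miRNAs.

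The other 8 tested members did not pass, so 1 of 9 rose and 0 fell. At an unadjusted p below 0.05 the count of falls was also 0, and with DESeq2 it was 0. Among all 348 miRNAs tested, 29 rose, a share of 8.33%, and 48 fell, a share of 13.8%. With the fit and the adjustment on the miRNA entries alone, 18 rose and 26 fell, and 1 of the 9 members rose. Calls given for miRNAs outside the family rest on the adjustment over all 24682 entries and can be fewer on the miRNAs alone. The median log2 change was -0.04 over the 9 members and -0.11 over the 348 miRNAs. Every KO library lay above every WT library in 12.1% of the miRNAs and below in 22.4%, against 1 and 0 of the 9 members. Of all small RNA entries tested, 83.0% were called on this scale, 18942 of 24682 as lower in KO.

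**Figure D2:**
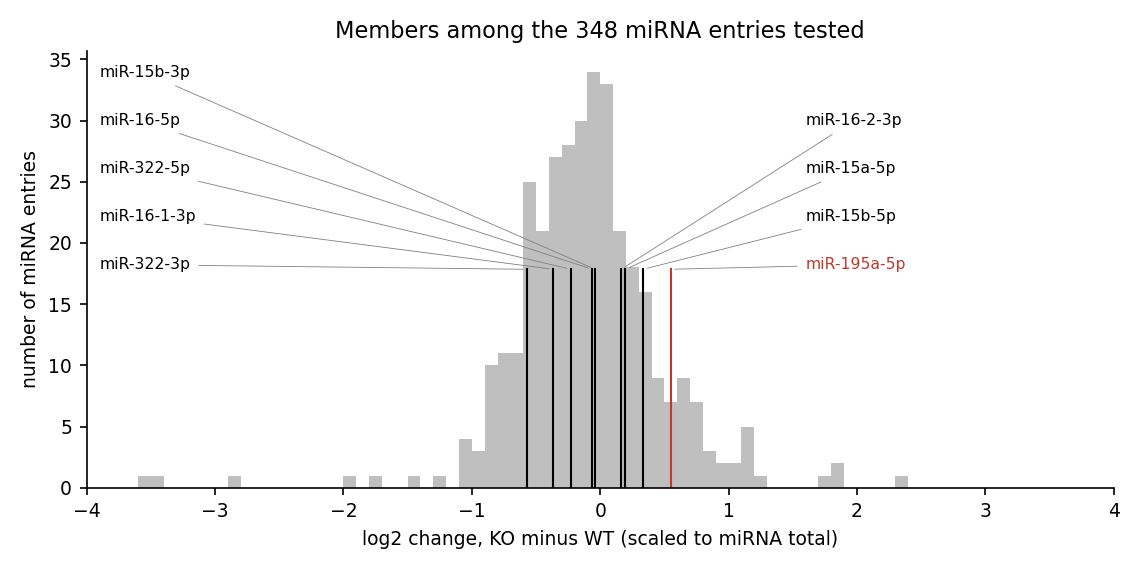
Histogram of the log2 change (KO minus WT, scaled to the miRNA total) of the 348 miRNA entries tested, with lines at the 9 tested members. miR-195a-5p, in red, stands at 0.55, and the other 8 members lie between -0.57 and 0.33.

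The neighbour of miR-195a shared its direction without passing. miR-497a-5p, which has the same seed and comes from the adjacent hairpin, was at 524, 498 and 406 CPM in KO and 389, 393 and 305 in WT. Its KO libraries were all above its WT libraries, though KO library 3 was close to WT library 2. In log2 this was 0.40 ± 0.22 (SE, 95% interval -0.04 to 0.84, edgeR adjusted p = 0.0886). miR-497a-3p, with 8 to 29 counts and in the test through the KO libraries alone, overlapped between genotypes at 0.27 ± 0.39 (SE, edgeR adjusted p = 0.528).

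Markers of somatic testis cells are given beside these values because the samples were purified from whole testes. Of the 3 tested entries of the peritubular and smooth muscle list, miR-143-3p fell by 0.60 and miR-145a-5p by 0.47 on the log2 scale (edgeR adjusted p = 0.000869 and 0.0216), and miR-145a-3p was at -0.37 without passing. The 4 entries of that list together held 14643 to 19339 CPM in KO and 20482 to 29724 in WT. In the Sertoli and gonadal list 3 of 5 tested entries fell and 0 rose. The summed level of each of these 2 lists was lower in every KO library than in every WT library. It was 2434 to 2908 CPM in KO and 3132 to 3467 in WT for the Sertoli and gonadal list. In the leukocyte list 1 of 5 rose, miR-155-5p at 1.29 with 10 to 17 counts in KO and 4 to 7 in WT (in the test through the KO libraries alone), and in the germ cell list 4 of 8 rose. 1 of these 4, miR-449a-3p, had 13 to 18 counts in KO and 7 to 8 in WT and was also in the test through the KO libraries alone. The germ cell entries that did not pass included miR-34b-5p, the most abundant of the list, at 0.10 (edgeR adjusted p = 0.554). The rest were miR-34c-5p at 0.28, miR-449c-3p at -0.02 and miR-449c-5p at -0.61 (edgeR adjusted p = 0.0843, 0.942 and 0.0622). miR-449b, of the same cluster as miR-449a and miR-449c but not in the list, fell by 0.70 on the log2 scale (edgeR adjusted p = 0.00304), and was looked up after the values of the list were seen. The part of these in the change of miR-195a-5p was not tested.

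miR-15b-5p, the second most abundant member, was split within KO. It stood at 38446, 32337 and 19881 CPM in KO libraries 1 to 3 and at 26129, 21135 and 24676 in WT. KO libraries 1 and 2 were above all WT libraries and KO library 3 was below them all. The mean was 30222 ± 9462 (SD, n = 3) in the KO libraries and 23980 ± 2569 in the WT libraries. The difference in log2 was 0.33 ± 0.18 (SE, 95% interval -0.03 to 0.70, edgeR adjusted p = 0.0843). Whether it passed depended on single libraries, on the filter and on a block for the library number. Without KO library 1 the difference was 0.12 (edgeR adjusted p = 0.576), without KO library 2 it was 0.28 (edgeR adjusted p = 0.215), and without WT library 1 or 2 it was 0.40 or 0.25 (edgeR adjusted p = 0.0819 and 0.167). It passed without KO library 3 (0.56, edgeR adjusted p = 0.00281), without WT library 3 (0.35, edgeR adjusted p = 0.0488) and without both (0.58, edgeR adjusted p = 0.000316). It also passed with no filter on low counts (0.33, edgeR adjusted p = 0.0349) and with the library number as a block (0.29, edgeR adjusted p = 0.0135).

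miR-16-2-3p comes from the hairpin next to Mir15b, in the same intron. It was at 686, 710 and 435 CPM in KO and 617, 448.9 and 557 in WT. Its genotypes overlapped, with 0.16 ± 0.21 in log2 (SE, edgeR adjusted p = 0.473). Like miR-15b-5p it was high in KO libraries 1 and 2 and lowest in KO library 3, and in both the WT libraries ran in the order 1, 3, 2 from high to low. miR-15b-3p, the other arm of Mir15b, was at 179, 95.6 and 148 in KO and 156, 148 and 142.3 in WT (-0.04 ± 0.30 in log2, SE, edgeR adjusted p = 0.905) and did not follow that order.

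miR-16-5p, the member with the most reads, showed no change that passed. It was at 75214, 58776 and 66126 CPM in KO and at 73592, 67628 and 67837 in WT. The WT values lay between the lowest and the highest KO library. KO minus WT came to -0.06 ± 0.15 in log2 (SE, 95% interval -0.38 to 0.25, edgeR adjusted p = 0.708).

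miR-15a-5p, from the Dleu2 intron, was at 17342, 18452 and 14168 CPM in KO and at 14030, 16911 and 12714 in WT. The genotypes overlapped, with library 2 the highest in each and KO library 3 the lowest of KO. KO minus WT came to 0.19 ± 0.16 in log2 (SE, 95% interval -0.14 to 0.52, edgeR adjusted p = 0.266). Its neighbour's arm miR-16-1-3p had only 3 to 13 counts per library, at 29.8, 34.1 and 32.8 CPM in KO and 16.7, 51.0 and 52.8 in WT. At that depth its change of -0.37 ± 0.45 (SE, edgeR adjusted p = 0.456) could be as low as -1.29 or as high as 0.56. It entered the test through the KO libraries alone, in which its share of the whole table was larger.

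The X-linked member was low and did not pass on either arm. miR-322-5p was at 567, 526 and 443 CPM in KO and at 556, 740 and 504 in WT, with overlap. Its log2 change was -0.23 ± 0.21 (SE, 95% interval -0.65 to 0.19, edgeR adjusted p = 0.302), and -0.05 without WT library 2. miR-322-3p was at 93.7, 75.1 and 57.5 in KO and 89.0, 122 and 122 in WT, where WT library 1 fell among the KO libraries, with a change of -0.57 ± 0.35 (SE, edgeR adjusted p = 0.131).

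Of its neighbours in the Mir322 cluster, miR-503-5p was lower in every KO library, at 439, 416 and 398 CPM against 617, 582 and 488 in WT. Its log2 change of -0.42 ± 0.20 did not pass (SE, edgeR adjusted p = 0.0546). miR-450a-5p and miR-542-3p were at -0.50 ± 0.42 and 0.02 ± 0.46 and did not pass (SE, edgeR adjusted p = 0.266 and 0.962). They had only 6 to 18 and 4 to 13 counts a library, so their lack of a call says little. miR-542-3p was in the test through the KO libraries alone. Over the 13 neighbour entries of Mir322 and Mir195a, 5 were tested, and 0 rose or fell.

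The scale decides how the rest of the family is read. Against the whole small RNA table with TMM factors, all 9 tested members rose, by 1.36 (miR-322-3p) to 2.45 (miR-195a-5p) on the log2 scale. On that scale 97.1% of the miRNAs and 34.9% of all entries rose, and the median of the 9 members was 1.90 beside 1.81 for all miRNAs. This scaling moved the median log2 change of all entries from -2.14 to -0.21, and the change of miR-16-5p from -0.06 to 1.85. As a share of the whole table the family was at 2.63%, 2.40% and 2.04% in KO and 0.713%, 0.690% and 0.553% in WT, without overlap (3.61-fold, two-sided exact permutation p = 0.1). miR-195a-5p was the member with the highest log2 change on either scale. A change of scale shifts all entries by nearly the same amount, so the second order is not a separate result.

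**Figure D3:**
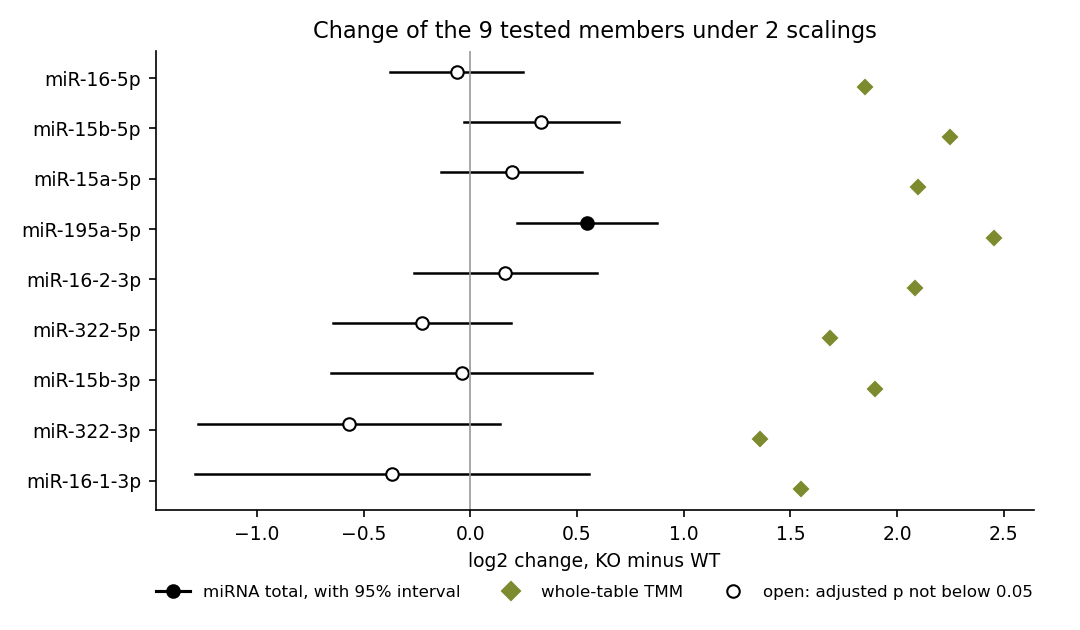
Log2 change (KO minus WT) of the 9 tested members. Circles with 95% intervals are scaled to the miRNA total, and diamonds use TMM factors of the whole table, filled where the edgeR adjusted p was below 0.05. Only miR-195a-5p is filled on the first scale, and all 9 are filled on the second.

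Ratios between members within a library need no scaling at all, and 6 were compared. Per 100 reads of miR-16-5p, miR-195a-5p had 16.5, 19.3 and 16.0 in KO and 11.3, 12.6 and 9.73 in WT. All KO libraries were above all WT libraries. Among the single miRNAs tested on the miRNA scale this held for 12.1%, and the reverse for 22.4%. The share over ratios of other pairs of miRNAs was not computed. The mean log2 ratio was -2.54 ± 0.14 in KO and -3.16 ± 0.19 in WT (SD, n = 3), a difference of 0.62 or 1.54-fold (two-sided exact permutation p = 0.1, adjusted p = 0.6 over 6 ratios, higher in 3 of 3 libraries). With 3 libraries against 3 no ratio could pass. This ratio uses the same counts as the rise of miR-195a-5p on the miRNA scale, where miR-16-5p was at -0.06. It is therefore not a separate result.

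The other 5 ratios overlapped between the genotypes. Per 100 reads of miR-16-5p, miR-15b-5p had 51.1, 55.0 and 30.1 in KO and 35.5, 31.3 and 36.4 in WT, with KO library 3 below all WT libraries (difference in log2 0.36, exact permutation p = 0.4, adjusted p = 0.7). miR-15a-5p had 23.1, 31.4 and 21.4 in KO and 19.1, 25.0 and 18.7 in WT (difference 0.27, exact permutation p = 0.3, adjusted p = 0.7). miR-322-5p had between 0.673 and 1.10 in all 6 libraries. Against miR-15b-5p in place of miR-16-5p, the ratio of miR-195a-5p overlapped as well.

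The 2 gene pairs could be compared through the arms that only 1 of them makes. miR-16-2-3p outnumbered miR-16-1-3p in every library, with 843 to 3186 reads per 100 reads of miR-16-1-3p after 0.5 was added to each count. The KO libraries lay within the range of the WT libraries in this ratio (difference in log2 0.30, exact permutation p = 0.7, adjusted p = 0.7). miR-15b-5p had 124.97 to 221.7 reads per 100 reads of miR-15a-5p in all libraries, with a difference of 0.09 in log2 (exact permutation p = 0.7, adjusted p = 0.7). Both pairs thus had more reads of the Smc4 intron products than of the Dleu2 intron products, in arms whose capture by the library kit was not compared.

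**Figure D4:**
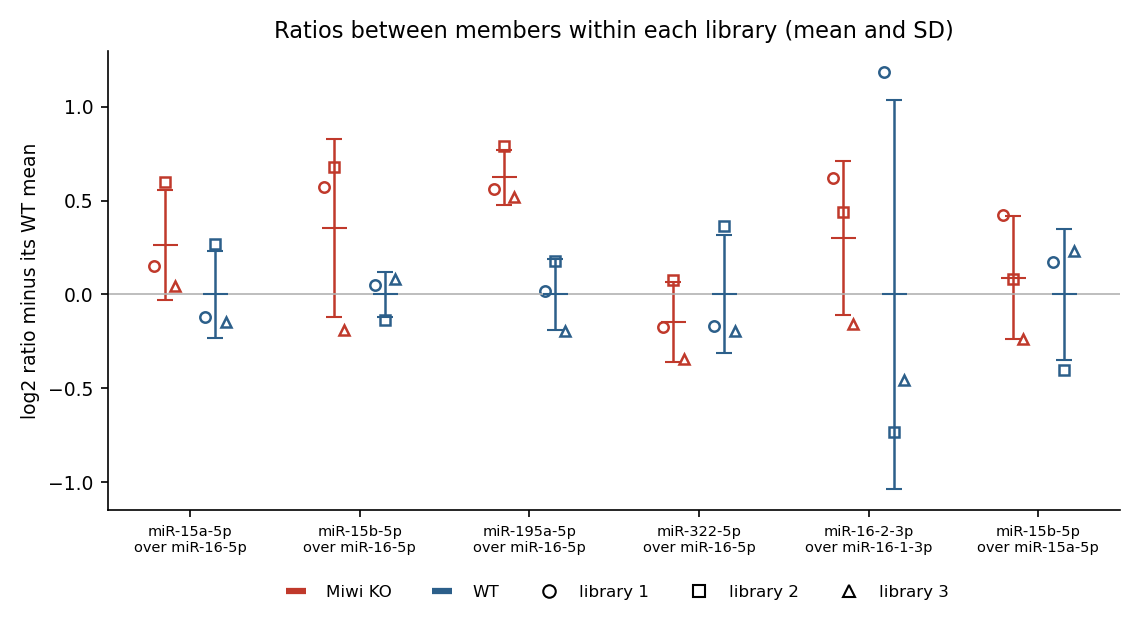
Log2 ratio between 2 members in each library, minus the mean of the WT libraries for that ratio, with mean and SD (n = 3). The ratio of miR-195a-5p to miR-16-5p is the 1 of 6 in which KO (red) and WT (blue) do not overlap. The share over ratios of other pairs of miRNAs was not computed.

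The balance of the arms overlapped between the genotypes. Per 1000 reads of the 5p arm, the 3p arm had 5.01 ± 2.26 in KO and 6.24 ± 0.663 in WT for miR-15b, and 9.75 ± 2.80 and 8.33 ± 0.835 for miR-16 with both 3p arms added (SD, n = 3). For miR-15a and miR-195a the 3p arm had 1 to 4 counts in any library, too few to test as single entries. miR-322 had far more of its 3p arm, at 145.97 ± 18.1 in KO and 189 ± 45.8 in WT. Its 5p share was 3.10 percentage points higher in KO, but 1.27 without WT library 3 and 0.650 without both libraries of number 3. The 5p share overlapped between genotypes in all 5 hairpins, with exact permutation p between 0.2 and 0.6 and an adjusted p of 0.6 for each. With so few libraries no hairpin could pass, so the overlap does not show that the balance was unchanged. For miR-15a and miR-195a it rests on the 1 to 4 counts of the 3p arm. The share of other miRNA hairpins with such overlap was not computed.

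Few other miRNAs with the family's seed were seen. miR-195b, miR-6342, miR-6353, miR-6419 and miR-1907, the last not in the RefSeq set, had at most 4 counts in any library and were not tested. With miR-497a-5p the 6 entries held 435 to 532 CPM in KO and 313 to 408 in WT, against 111888 to 144963 and 113218 to 123508 for the members. Reads with this seed were thus nearly all from the 5 members.

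By the distance of log2 levels over the 6 libraries, each centred on its mean, the miRNAs most like miR-16-5p among 92 with at least 1000 CPM were miR-21a-5p, miR-151-5p and miR-24-3p, at 0.15, 0.16 and 0.20 beside a median of 0.55. Its own relatives were farther, with miR-15a-5p at 0.62, miR-15b-5p at 0.82 and miR-195a-5p at 0.83. The miRNAs most like miR-15b-5p were let-7d-5p, let-7b-5p and let-7c-5p, at 0.53, 0.54 and 0.58 beside a median of 0.91. KO library 3 was the lowest of the 6 in let-7d-5p and let-7b-5p, as in miR-15b-5p, while in let-7c-5p WT library 1 was lower still, at 2320 against 2331. These distances describe the 6 libraries, which share the miRNA total as divisor, and carry no test.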

How the data were processed

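Small RNA of round spermatids was extracted with mirVana and made into Ion Total RNA-Seq libraries, per the labels. The authors deposited raw counts per reference sequence, made with featureCounts v1.5.0-p2 without further options, per the file headers. The submitters' processing notes also name cutadapt, DESeq2 and mm9. The aligner is not given in the sources used here. Entries are 20 bases longer than the mature miRNA in all 11 members. The deposited piRNA table was not used.

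KO was compared with WT with the quasi-likelihood test of edgeR (version 4.0.16, R version 4.3.3, no block) over the whole small RNA table after filterByExpr (minimum count 10, minimum total 15), with the miRNA total as library size. Benjamini-Hochberg adjustment ran over all 24682 entries tested, at 0.05. 2 members, miR-15a-3p and miR-195a-3p, were too low to test. The SE is the absolute log2 change over the root of F. Shares and log2 ratios (pseudocount 0.5) were compared by two-sided exact permutation tests (scipy 1.17.1), adjusted over 5 hairpins or 6 ratios.

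Named miRNAs were all members, those with the same seed, neighbours in 2 clusters, miR-103 and miR-107, marker lists, and the 3 nearest in level to miR-16-5p and to miR-15b-5p. Members and lists were chosen with earlier results of these data known. Alternatives were other scalings, filters, DESeq2 1.42.0, the replicate block, leaving out each library and, chosen after seeing the data, leaving out both libraries of number 3.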

Additional observations from a re-analysis of the deposited data

How the results depend on the processing

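miR-195a-5p rose in all 16 alternatives, by 0.44 to 0.64 on the miRNA scales, with leave-one-out values of 0.44 to 0.62. With TMM factors of the whole table and with its total it rose by 2.45 and 2.29, where 338 and 335 of 348 miRNAs rose. The number of members that rose was 1, and 9 with TMM factors of the whole table or its total, 2 with no filter, 2 with the replicate block, 2 with both libraries of number 3 left out, and 1 to 2 leaving out 1 library. The second was miR-15b-5p in each case but the whole-table scalings, at 0.29 with the block (edgeR adjusted p = 0.0135) and 0.33 with no filter (edgeR adjusted p = 0.0349). The number that fell was 0 throughout.

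Whether the numbers 1 to 3 pair the libraries was not settled. Over all entries tested, deviations of same-numbered libraries correlated at only 0.02, 0.07 and 0.10, yet each library correlated best with its own number. Over the miRNAs alone the correlations were -0.05, 0.18 and 0.11, and the libraries numbered 1 did not correlate best with each other.

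With TMM factors of the whole table and with its total, signs turned for miR-15b-3p (1.90 and 1.72), miR-16-1-3p (1.55 and 1.37), miR-16-5p (1.85 and 1.68), miR-322-3p (1.36 and 1.18) and miR-322-5p (1.68 and 1.51). With TMM factors of the miRNAs and with DESeq2, miR-15b-3p was at 0.0384 and 0.0386, and miR-16-5p at 0.0120 and 0.0260. Leaving out 1 library gave -0.24 to 0.14 for miR-15b-3p, -0.16 to 0.0202 for miR-16-5p, 0.12 to 0.56 for miR-15b-5p, 0.11 to 0.32 for miR-15a-5p, 0.05 to 0.37 for miR-16-2-3p, -0.35 to -0.05 for miR-322-5p and -0.78 to -0.38 for miR-322-3p.

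The family's difference in share was -0.0370 to 1.62 points leaving out 1 library, and 2.32 over a miRNA total without the 10 highest miRNAs and the members, a smaller divisor. Leaving out 1 library, 5p shares changed by -0.0225 to 0.00575 points for miR-15a, 0.02 to 0.24 for miR-15b, -0.27 to 0.00375 for miR-16, 1.27 to 4.12 for miR-322 and -0.00599 to 0.0521 for miR-195a (-0.00604 without both libraries of number 3). Log2 ratios ran from -0.26 to 0.0345 for miR-322-5p over miR-16-5p, -0.0631 to 0.90 for miR-16-2-3p over miR-16-1-3p and -0.11 to 0.25 for miR-15b-5p over miR-15a-5p. Hairpins without overlap were 0 to 2 and ratios without overlap 1 to 2 leaving out 1 library, 2 and 2 without both libraries of number 3, and ratios 0 against miR-15b-5p. Where no cause is named, the cause was not tested. Depth limits miR-16-1-3p, miR-15a-3p and miR-195a-3p, with 1 to 13 counts a library.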

Other observations

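miR-103 and miR-107 begin, on their 3p arms, with the bases that form the seed of the miR-15/16 family, but shifted by 1 position. miR-103-3p was at 5811, 5871 and 6398 miRNA CPM in KO libraries 1 to 3 and 8183, 7402 and 8060 in WT. All KO libraries were below all WT libraries, as in 22.4% of the miRNAs tested, and it fell by 0.39 on the log2 scale (SE 0.16, edgeR adjusted p = 0.0247). That adjustment ran over all 24682 entries, and calls can be fewer on the miRNAs alone. miR-107-3p was at 571, 519 and 558 in KO and 762, 612 and 654 in WT, also without overlap, but its change of -0.29 ± 0.19 did not pass (SE, edgeR adjusted p = 0.159). With TMM factors of the whole table both were above 0, at 1.54 and 1.63. Of the 5 entries of this pair, 2 were tested.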
